A study of Homo sapiens with 20 samples.

Results

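KO1 and KO2 are clones of H1, an established human embryonic stem cell line, and both carry a knockout label for DIGIT, whose long noncoding RNA is made from a gene beside the homeobox gene GSC. They were compared with each other at day 4 of differentiation, to ask how clones with the same label diverge across genes. The comparison holds 4 of the 12 RNA-seq libraries of the series, 2 of KO1 and 2 of KO2 at day 4, and these were taken by their labels. Both clones had been cultured for 4 days in RPMI medium with B27 supplement and 50 ng/ml Activin A, which drives the cells towards endoderm. The other 8 libraries are WT H1 at day 4 under the same treatment, and WT, KO1 and KO2 at day 0 in mTeSR1, the medium for undifferentiated cells, with 2 libraries a group. The 8 ChIP-seq samples of the series are not analysed here. Each knockout label stands for 1 edited line, and nothing in the labels says that the libraries of a group came from separate cultures. The p-values therefore measure the spread between libraries of the same group, shared over all 6 groups, with WT and the day 0 groups included. That spread may be technical, and it is not the spread between clones.

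Activin A acts through the receptors of the Nodal pathway, which bring SMAD2 and SMAD3 to the regulatory DNA of mesendoderm genes. Stem cells first pass through a state like the primitive streak, marked by T, EOMES, MIXL1 and GSC, and then switch on endoderm factors such as SOX17, FOXA2 and GATA6 while pluripotency factors such as SOX2 decline. Sterol and fatty acid synthesis is set in animal cells by the SREBP transcription factors, which INSIG proteins hold in the endoplasmic reticulum when sterols are plentiful.

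The day 4 libraries held 12374436 and 15351844 counts in KO1 and 12839236 and 15380017 in KO2, and the 12 libraries ranged from 9942016 to 21394547. Levels are given in CPM, a feature's count as a share of the library total after scaling by edgeR's TMM factors, and 3 counts in a library of these clones at day 4 equal 0.201 to 0.259 CPM. KO1 day 0 replicate 2 stood apart from its partner, with a chi-square between them of 21.8 per feature, against 1.89 to 3.88 in the other 5 groups. No feature is named DIGIT, so the knockout could not be checked on its own transcript. GSC, its neighbour, was measured in both clones and is described with the primitive streak genes. In bulk libraries, fewer cells of a type and less RNA per cell cannot be told apart.

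The clones differed in 4214 features at day 4 and in almost none at day 0. At day 4, of 16792 features tested with edgeR's quasi-likelihood test at an adjusted p under 0.05, 1810 (10.8%) were higher and 2404 (14.3%) were lower in KO2 than in KO1. A change of at least 1 on the log2 scale was reached by 238 of the higher features (1.42% of those tested) and by 886 of the lower ones (5.28%). At day 0, 2 features were called (0.0119%), LRRC61 and PCDHGA10, both higher in KO2, and 0 were lower. DESeq2 also called 2 and 0, and 648 features (3.86%) had an unadjusted p under 0.05. The median size of the log2 difference was 0.247 at day 4 and 0.108 at day 0. At day 4 the libraries of the clones did not overlap in 11659 features (69.4%). With 2 libraries a clone, lack of overlap alone therefore does not set a gene apart. The difference between the clones was itself tested between days: it was more positive at day 4 than at day 0 in 659 features (3.92%) and more negative in 1095 (6.52%). Of the 1124 features past 1 on the log2 scale at day 4, 682 were also called in that test.

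The counts depend on single libraries. The count of features higher in KO2 at day 4 was 717 without KO1 day 4 replicate 1, 1038 with KO1 day 4 replicate 2 left out, 1026 without KO2 day 4 replicate 1 and 838 without KO2 day 4 replicate 2. The count of lower features was 1451 without KO1 day 4 replicate 1 and 1458 without KO2 day 4 replicate 2. The higher count rose to 2916 and 2921 without KO1 day 0 replicate 1 and replicate 2. At day 0 the result rests on that same pair: without KO1 day 0 replicate 1 the clones differed in 1437 higher and 1340 lower features, and without replicate 2 in 0 of each.

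**Figure D1:**
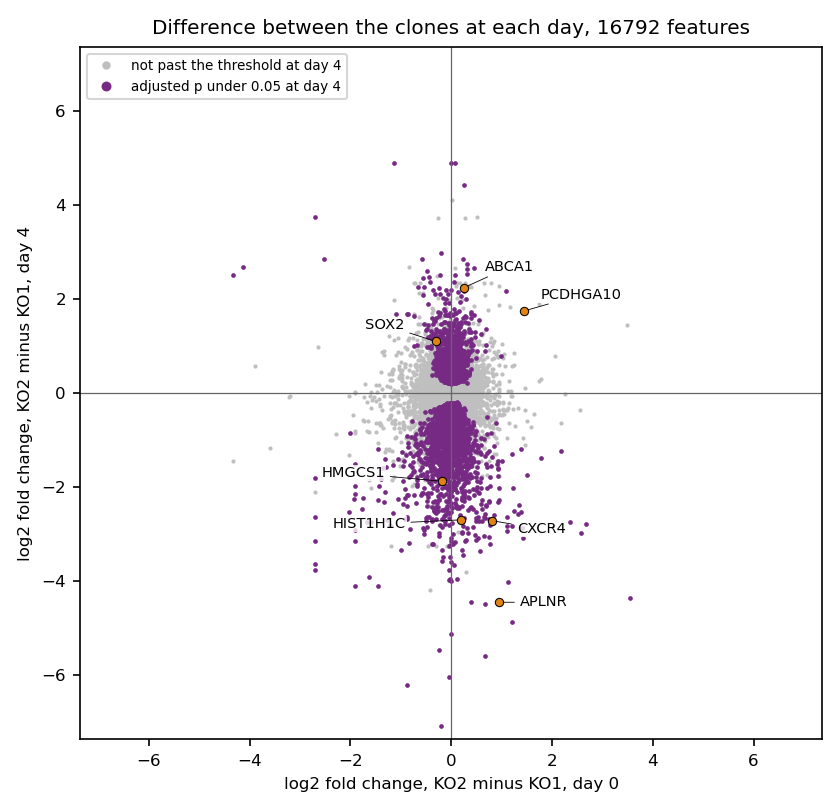
Each point is 1 of the 16792 tested features, placed by its log2 fold change KO2 minus KO1 at day 0 (x axis) and at day 4 (y axis), with features past the threshold at day 4 in purple. The cloud is tall and narrow: the median size of the difference is 0.247 at day 4 and 0.108 at day 0, and PCDHGA10 lies high on both axes. Points far from 0 on the x axis include genes with few or no counts in a clone at day 0, whose fitted values depend on the prior count.

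Genes of cholesterol synthesis were lower in KO2 than in KO1 almost without exception. Of 21 measured enzymes of the pathway, 19 were lower in KO2, 1 higher and 1 not past the threshold, with a median log2 difference of −1.29 where the median over all tested features was 0.0038. The summed level of the 21 genes was 14180 and 13200 CPM in the KO1 libraries and 4894 and 5429 CPM in the KO2 libraries, so the clones did not overlap. WT at day 4 held 4359 and 4615 CPM and was nearer to KO2 than to KO1 in 20 of the 21 genes. At day 0 the sums were 5856 and 6431 CPM in KO1 and 5803 and 5859 CPM in KO2, and the difference between the clones itself differed between days in 19 of the 21 genes.

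HMGCS1, the HMG-CoA synthase at the head of the pathway, and INSIG1, which holds SREBP in the endoplasmic reticulum, are shown with their promoters because the genes of this group moved together. The sequences are from RefSeq on GRCh38.p14 and run 5′ to 3′ on the strand of the gene, from 250 bases before its start to 50 after. Capitals mark CCAAT, the box bound by NF-Y, and CACNCCAC, a sterol regulatory element core, each searched on both strands, and here both lie on the opposite strand.
HMGCS1 (chr5:43313363-43313662, minus strand): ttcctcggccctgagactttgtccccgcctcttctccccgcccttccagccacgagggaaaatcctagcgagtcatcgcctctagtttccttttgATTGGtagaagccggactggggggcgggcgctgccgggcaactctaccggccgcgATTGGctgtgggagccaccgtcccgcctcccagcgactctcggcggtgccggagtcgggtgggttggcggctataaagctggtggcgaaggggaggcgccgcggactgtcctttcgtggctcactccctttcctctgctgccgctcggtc
INSIG1 (chr7:155297628-155297927, plus strand): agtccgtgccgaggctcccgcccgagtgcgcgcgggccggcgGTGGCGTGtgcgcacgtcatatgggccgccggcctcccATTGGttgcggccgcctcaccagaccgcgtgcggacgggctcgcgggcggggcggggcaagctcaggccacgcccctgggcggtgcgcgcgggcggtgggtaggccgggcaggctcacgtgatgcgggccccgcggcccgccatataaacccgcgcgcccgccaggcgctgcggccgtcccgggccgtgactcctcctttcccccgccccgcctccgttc
In HMGCS1 the CCAAT matches begin 155 and 100 bases upstream of the start. In INSIG1 the CCAAT match lies 170 and the CACNCCAC match 208 bases upstream. Promoters were found for 29 of the 37 tested genes of cholesterol synthesis, uptake and SREBP control. CCAAT was present in 21 of these (72.4%) and CACNCCAC in 5 (17.2%), against 39.7% and 7.05% of the promoters of 27305 genes. A match of letters is a description and not a binding site.

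HMGCS1 had 2830 and 2720 CPM in KO1 and 674 and 837 CPM in KO2, a log2 difference of −1.88 (SE 0.12, adjusted p = 2.66e-08, edgeR). The clones did not overlap, as in 69.4% of all tested features, and WT at day 4, with 504 and 560 CPM, lay below both. The largest differences in the list were those of MVK, mevalonate kinase, at log2 −2.16, and MVD, mevalonate decarboxylase. MVD had 303 and 288 CPM in KO1, 68.0 and 79.2 CPM in KO2, with 69.7 and 75.3 CPM in WT. PMVK, the phosphomevalonate kinase that acts between MVK and MVD, went the other way: it had 15.4 and 15.7 CPM in KO1 and 24.6 and 22.5 CPM in KO2 (log2 0.60, adjusted p = 0.000754, edgeR).

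The genes that control sterol uptake and SREBP were called in both directions. Of 16 measured, 11 were lower and 3 were higher in KO2, with a median of −0.87. INSIG1 had 281 and 240 CPM in KO1 and 30.6 and 41.9 CPM in KO2, a log2 difference of −2.84 (SE 0.17, adjusted p = 1.5e-08, edgeR), and WT held 31.6 and 36.2 CPM, at the level of KO2. LPIN1, a phosphatidate phosphatase, was lower by log2 −2.56.

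The 3 higher genes of that list were ABCA1, MYLIP and SCAP. ABCA1, which exports cholesterol from cells, had 1.73 and 1.58 CPM in KO1 and 9.31 and 6.49 CPM in KO2 (log2 2.24, SE 0.28, adjusted p = 3.31e-05, edgeR), with 11.9 and 13.7 CPM in WT. MYLIP, a ubiquitin ligase, was 7.59 and 8.53 CPM in KO1 and 18.2 and 16.0 CPM in KO2 (log2 1.08). SCAP, the escort of SREBP, was higher by log2 0.39, and its call was lost without KO1 day 4 replicate 1 (adjusted p = 0.087). For ABCA1 and MYLIP, too, the KO1 libraries lay below WT and KO2 lay nearer to it.

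Fatty acid synthesis differed in the same direction. Of 14 genes measured, 13 were lower in KO2 and 1, the carboxylase gene ACACB, did not pass (log2 0.03), with a median of −0.99. ACSS2, which makes acetyl-CoA from acetate, had 208 and 194 CPM in KO1 and 21.8 and 21.8 CPM in KO2, a log2 difference of −3.21 (SE 0.20, adjusted p = 2.2e-08, edgeR), and WT held 20.7 and 25.6 CPM. FASN, the fatty acid synthase, had 2185 and 2049 CPM in KO1 and 853 and 966 CPM in KO2 (log2 −1.22). ME1, the malic enzyme, and PNPLA3, a lipid droplet protein, were lower by log2 −1.36 and −1.31. The summed level was 12240 and 11660 CPM in KO1, 5619 and 5720 CPM in KO2, with 4517 and 4936 CPM in WT, and WT was nearer to KO2 in 13 of the 14 genes. SREBF1 and SREBF2, which code for the SREBP factors, differed by log2 −0.34 and −0.36, and SREBF1 lost its call without any 1 of the 4 day 4 libraries.

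**Figure D2:**
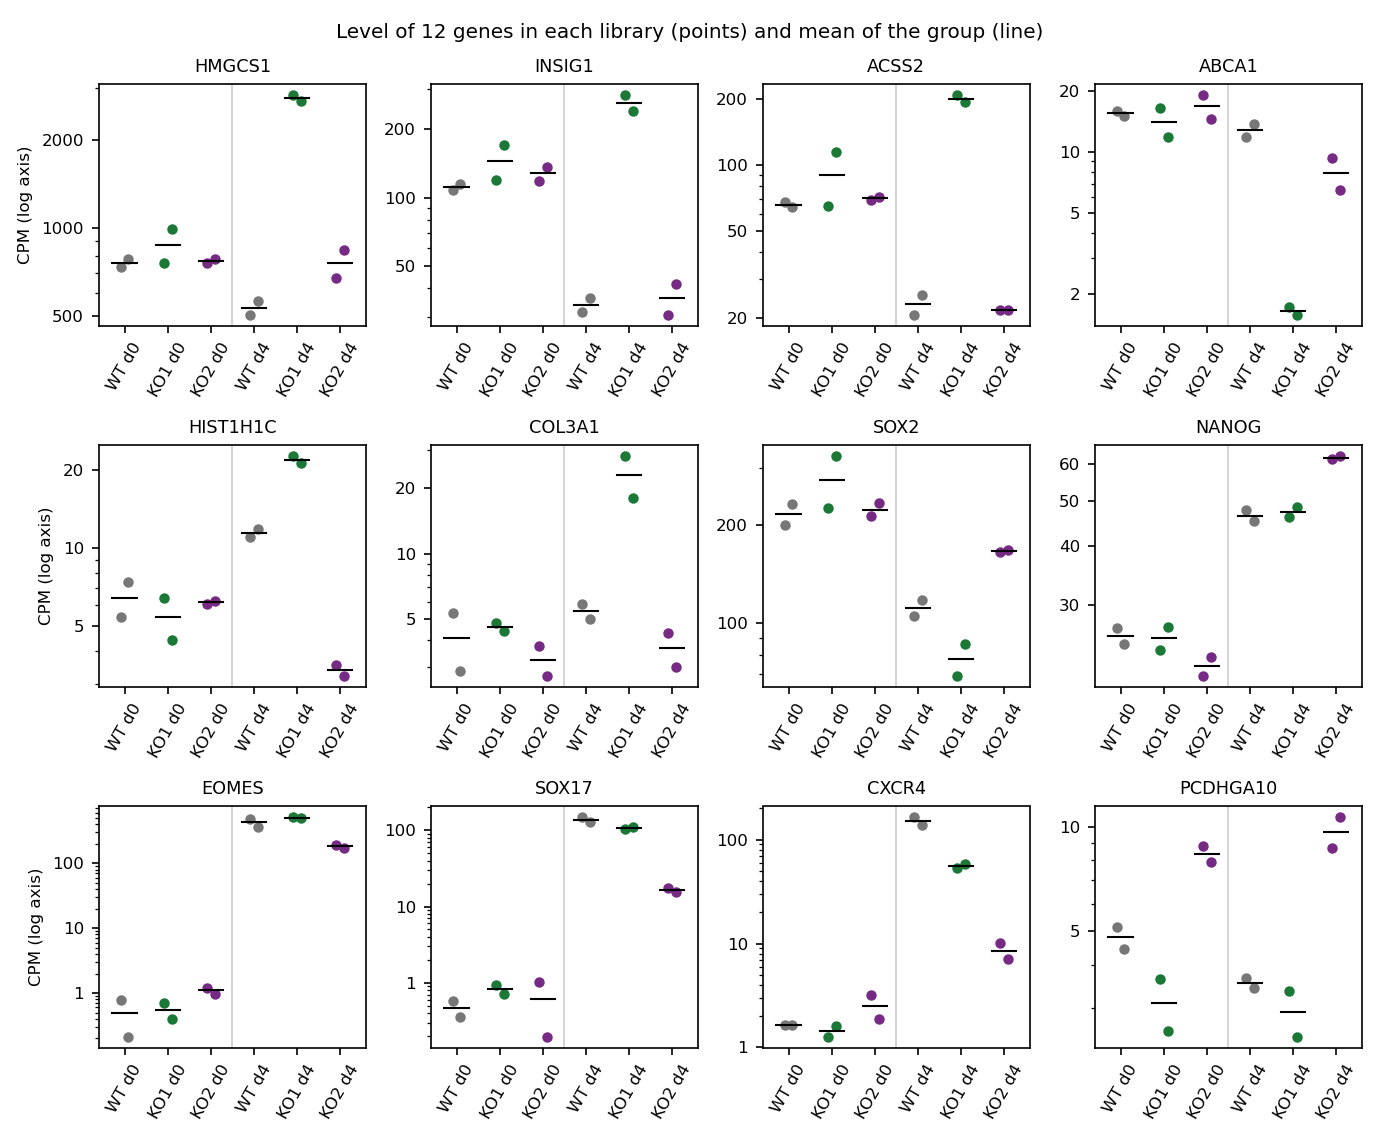
Level of 12 genes in CPM (log axis, scaled to each panel) in each of the 12 libraries (points) with the mean of the 2 libraries of a group (line), for WT (grey), KO1 (green) and KO2 (purple) at day 0 (d0) and day 4 (d4). The KO1 day 4 libraries stand alone in HMGCS1, INSIG1, ACSS2, ABCA1 and COL3A1, the KO2 day 4 libraries stand apart from WT and KO1 at day 4 in EOMES, SOX17, CXCR4 and NANOG, and PCDHGA10 separates the clones at both days.

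Replication histone transcripts were lower in KO2 as well. These genes are switched on in S phase and mostly make mRNA without a poly(A) tail, so poly(A) libraries hold only the polyadenylated part of it. Of 43 measured, 25 were lower, 0 were higher and 18 did not pass, with a median of −1.30. The summed level was 211 and 204 CPM in KO1 and 79.7 and 77.0 CPM in KO2, with 103 and 110 CPM in WT between them. Near-identical copies of these genes share reads, and HIST2H2AA3, HIST2H3A and HIST2H4A had 0 counts in both clones and in WT at day 4.

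HIST1H1C codes for a linker histone. Its promoter is shown because CCAAT was present in 34 of the 36 histone promoters found (94.4%). The share was 39.7% over all 27305 genes with a promoter, tested or not. Capitals mark CCAAT and AAACACA, the H1 box of linker histone genes, searched on both strands.
HIST1H1C (chr6:26056421-26056720, minus strand, RefSeq, GRCh38.p14): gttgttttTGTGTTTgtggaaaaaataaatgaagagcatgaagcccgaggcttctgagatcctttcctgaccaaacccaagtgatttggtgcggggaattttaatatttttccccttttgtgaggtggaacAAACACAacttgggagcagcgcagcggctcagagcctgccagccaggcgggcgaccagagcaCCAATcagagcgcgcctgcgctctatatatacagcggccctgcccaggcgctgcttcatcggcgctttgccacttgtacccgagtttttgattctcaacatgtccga
CCAAT begins 57 bases upstream on the strand of the gene. AAACACA lies 119 bases upstream on that strand and 242 bases upstream on the other, and was present in 13.9% of the histone promoters and 6.94% of all. HIST1H1C had 22.5 and 21.2 CPM in KO1, 3.53 and 3.21 CPM in KO2, with 11.1 and 11.9 CPM in WT. The log2 difference between the clones was −2.70 (SE 0.19, adjusted p = 1.09e-07, edgeR), without overlap. HIST1H4H, an H4 gene, and HIST1H2BD, an H2B gene, differed by log2 −2.87 and −2.43.

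Other cell cycle genes did not move one way. Among 38 measured, 8 were higher and 8 lower in KO2, with a median of −0.02. The shares over all tested features were 10.8% higher and 14.3% lower. The higher genes included the replication factors MCM2, MCM3, MCM4, MCM7, PCNA and ORC1, and cyclin D1 (CCND1, log2 0.58, 255 and 254 CPM in KO1 and 376 and 386 CPM in KO2). The lower genes included the cyclin-dependent kinase CDK6 (log2 −1.14) and MKI67, the gene of the proliferation antigen Ki-67 (524 and 467 CPM in KO1, 364 and 331 CPM in KO2, log2 −0.51). Without KO1 day 4 replicate 1, ORC1 and CCND1 were still called, while MCM2 (adjusted p = 0.0772, edgeR), MCM3, MCM4, MCM7, PCNA and MKI67 were not. MCM3, MCM4 and MCM7 lost the call without any 1 of the 4 day 4 libraries, PCNA also without either KO2 library and MKI67 also without KO2 replicate 2. The higher count was 2 without KO1 replicate 1, 5 without KO1 replicate 2, 3 without KO2 replicate 1 and 4 without KO2 replicate 2. The lower count was 4, 5, 4 and 3 in the same order. Among 16 histone genes and mRNA factors that do not follow replication, 1 was higher and 3 were lower, with a median of −0.09. These counts are near the shares over all tested features. H2AFY2, a macroH2A gene, was the largest at log2 −1.11, and the higher member, ZNF473, lost its call under DESeq2, without any 1 of the 4 day 4 libraries and without either KO2 day 0 library. The lower count was 5 without either KO1 day 0 library.

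Primitive streak and mesendoderm genes were lower in KO2. Of 19 measured, 14 were lower and 0 were higher, with a median of −1.70. Their summed level was 6969 and 6846 CPM in KO1, 6866 and 6097 CPM in WT and 1918 and 1683 CPM in KO2. A large part of it came from CER1, with 4536 and 4445 CPM in KO1 and 967 and 765 CPM in KO2. At day 0 the sum was 19.2 to 31.0 CPM over the 6 libraries, so it was higher at day 4 in all 3 lines and lowest in KO2. APLNR, the apelin receptor of nascent mesendoderm, differed most in the whole comparison among the genes named by size. It had 39.0 and 31.5 CPM in KO1, 1.44 and 1.74 CPM in KO2, with 5.64 and 7.99 CPM in WT, a log2 difference of −4.45 (SE 0.22, adjusted p = 4.76e-09, edgeR).

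The transcription factors of the streak differed unequally. LHX1 had 153 and 170 CPM in KO1 and 18.0 and 13.4 CPM in KO2 (log2 −3.37). MIXL1 had 144 and 147 CPM in KO1, 32.1 and 26.5 CPM in KO2, with 67.0 and 52.3 CPM in WT, which lay between the clones (log2 −2.31). EOMES had 508 and 492 CPM in KO1 and 192 and 173 CPM in KO2 (log2 −1.45, SE 0.13, adjusted p = 9.31e-07, edgeR). GSC, which neighbours DIGIT, had 36.7 and 37.6 CPM in KO1 and 8.83 and 8.23 CPM in KO2, with 56.4 and 45.6 CPM in WT (log2 −2.12). T, the brachyury gene, did not pass: it had 28.9 and 26.6 CPM in KO1 and 19.7 and 24.3 CPM in KO2 (log2 −0.33, SE 0.15, adjusted p = 0.114, edgeR). The clones did not overlap in T, as in 69.4% of all tested features, and both lay above WT at 14.6 and 12.3 CPM. T was called lower in a fit of only the 4 libraries compared (adjusted p = 0.018, edgeR), in a fit of the 6 day 4 libraries and without either KO1 day 0 library. The ligand gene FGF17 had 335 and 347 CPM in KO1 and 54.8 and 42.0 CPM in KO2 (log2 −2.82).

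Definitive endoderm genes were lower in KO2 in 34 of 44 cases, higher in 2 and not past the threshold in 8, with a median of −1.26. Their summed level was 7736 and 7702 CPM in KO1, 3222 and 2944 CPM in KO2, with 8704 and 8089 CPM in WT, and WT was nearer to KO1 in 40 of the 44. Streak and endoderm lists share genes such as CER1 and GATA6. SOX17 had 102 and 110 CPM in KO1, 17.6 and 15.4 CPM in KO2, with 147 and 129 CPM in WT (log2 −2.69, SE 0.14, adjusted p = 7.23e-09, edgeR). FOXA2, a forkhead factor, had 48.8 and 54.1 CPM in KO1, 12.8 and 8.63 CPM in KO2, with 63.4 and 57.7 CPM in WT (log2 −2.27). GATA6 had 176 and 174 CPM in KO1, 31.1 and 24.2 CPM in KO2, with 198 and 174 CPM in WT (log2 −2.66). KO2 lay below the other lines in each of these 3 factors, and KO1 lay below WT in SOX17 and FOXA2 and overlapped it in GATA6.

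In CXCR4, GATA4, HHEX and LINC00261 the lines were ordered, with KO2 lowest and WT highest. CXCR4, the chemokine receptor used to mark endoderm, had 53.2 and 58.1 CPM in KO1, 10.0 and 7.09 CPM in KO2, with 164 and 139 CPM in WT (log2 −2.71). GATA4 had 32.6 and 29.6 CPM in KO1 and 6.10 and 5.29 CPM in KO2 (log2 −2.45), and HHEX, a homeobox factor of anterior endoderm, had 27.6 and 31.5 CPM and 6.58 and 5.69 CPM (log2 −2.27). The endoderm noncoding RNA LINC00261 had 22.7 and 23.1 CPM in KO1, 3.21 and 2.61 CPM in KO2, with 60.1 and 54.1 CPM in WT (log2 −2.98). CD177, a surface protein, differed most in the list at log2 −3.96, with 31.4 and 23.7 CPM in KO1, 1.85 and 1.67 CPM in KO2, with 11.8 and 10.8 CPM in WT, between the clones. The apolipoprotein gene APOA2 had 23 counts in KO1 and 3 in KO2, a ratio of 8.04 with an exact 95% counting interval of 2.43 to 41.8, and lost its call when KO1 day 4 replicate 1 or KO2 day 4 replicate 2 was left out.

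The 2 endoderm list members that were higher in KO2 are genes of epithelial cells. EPCAM, an adhesion molecule that stem cells also carry, had 219 and 221 CPM in KO1 and 328 and 322 CPM in KO2 (log2 0.56). RBM47, an RNA-binding protein, was higher by log2 0.50. For the next 2 lists, the shares over all tested features were 14.3% lower and 10.8% higher. Among later endoderm and liver genes, 9 were measured, 3 were lower and 0 were higher. The lower count was 1 without any 1 of the 4 day 4 libraries. TTR and APOC3 had 0 counts in both clones. Among 12 extraembryonic endoderm genes 7 were lower and 0 higher (median −0.35), SOX7 among them at log2 −1.19, and 1 was higher without either KO1 day 0 library.

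**Figure D3:**
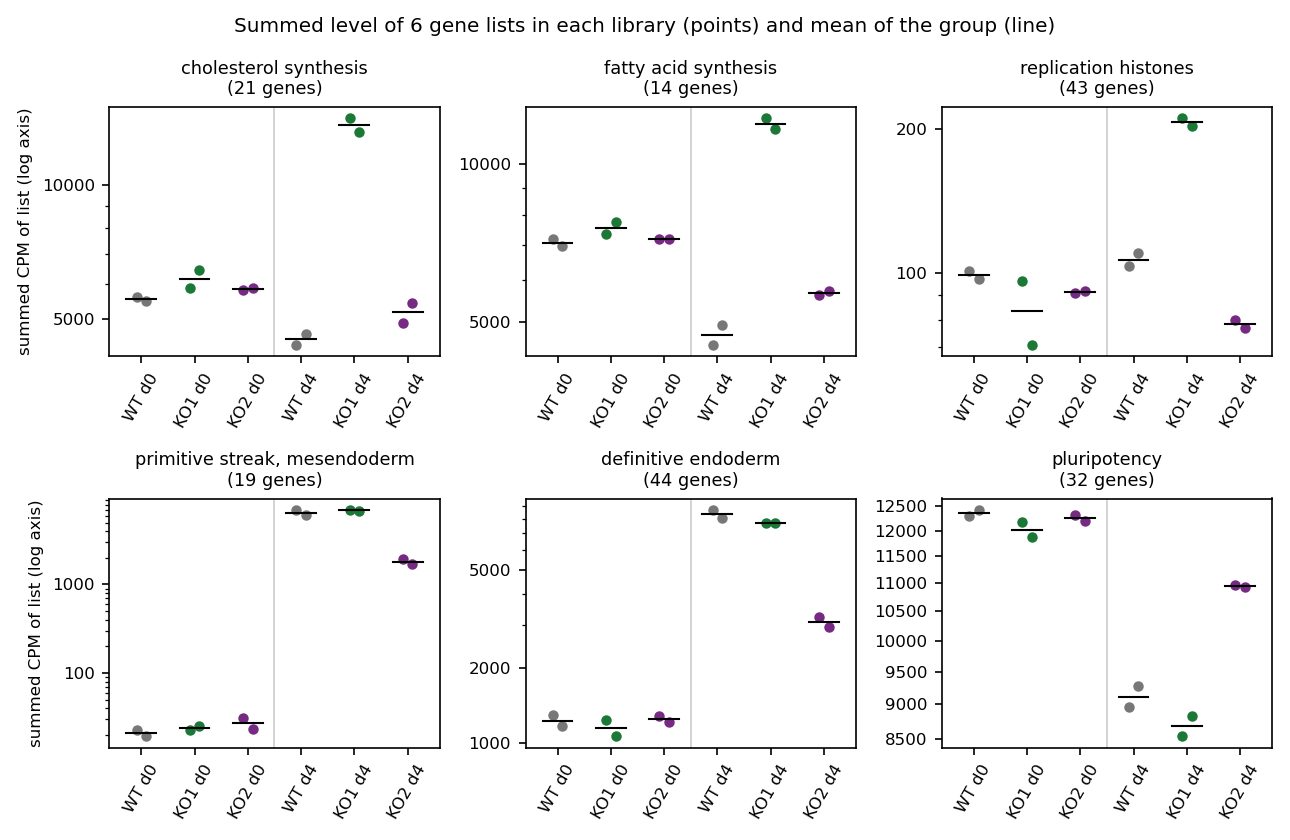
Summed level in CPM (log axis, scaled to each panel) of 6 gene lists in each library (points), with the mean of the 2 libraries of a group (line) and the number of genes measured. At day 4 (d4), KO1 stands above WT and KO2 in cholesterol synthesis, fatty acid synthesis and replication histones, while KO2 stands below WT and KO1 in primitive streak and definitive endoderm genes and above them in pluripotency genes. CER1 alone makes up a large part of the streak and endoderm sums at day 4.

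Pluripotency genes were higher in KO2 on balance. Of 32 measured, 14 were higher, 5 were lower and 13 did not pass, with a median of 0.42. The shares over all tested features were 10.8% higher and 14.3% lower. Their summed level was 8536 and 8823 CPM in KO1, 10970 and 10940 CPM in KO2, with 8960 and 9274 CPM in WT, while at day 0 KO1 and KO2 held 11870 to 12310 CPM. SOX2 had 69.1 and 86.6 CPM in KO1, 166 and 168 CPM in KO2, with 105 and 118 CPM in WT, a log2 difference of 1.10 (SE 0.15, adjusted p = 5.79e-05, edgeR). WT lay between the clones, which did not overlap. POU5F1, the gene of OCT4, had 385 and 398 CPM in KO1 and 512 and 567 CPM in KO2 (log2 0.46, adjusted p = 0.000316, edgeR). NANOG had 46.3 and 48.4 CPM in KO1 and 61.3 and 62.2 CPM in KO2 (log2 0.38, adjusted p = 0.00691, edgeR), a call lost when KO1 day 4 replicate 1 (adjusted p = 0.0795, edgeR) or KO2 day 4 replicate 2 (0.0601) was left out.

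The largest higher pluripotency genes were PRDM14, a zinc finger factor, VSNL1, a calcium sensor, and TERF1, a telomere protein, at log2 1.51, 1.32 and 1.30. PRDM14 had 30.1 and 40.0 CPM in KO1 and 94.7 and 106 CPM in KO2. The lower members included FGF4, the neuropeptide gene GAL, KLF5 and OTX2. GAL had 908 and 901 CPM in KO1 and 358 and 336 CPM in KO2 (log2 −1.38), and it was above its day 0 level of 62.6 to 70.1 CPM in both clones. FGF4 and KLF5, too, were above their day 0 levels in both clones, with FGF4 at 13.5 and 11.7 CPM in KO1, 3.45 and 3.81 CPM in KO2, against under 1 CPM at day 0.

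**Figure D4:**
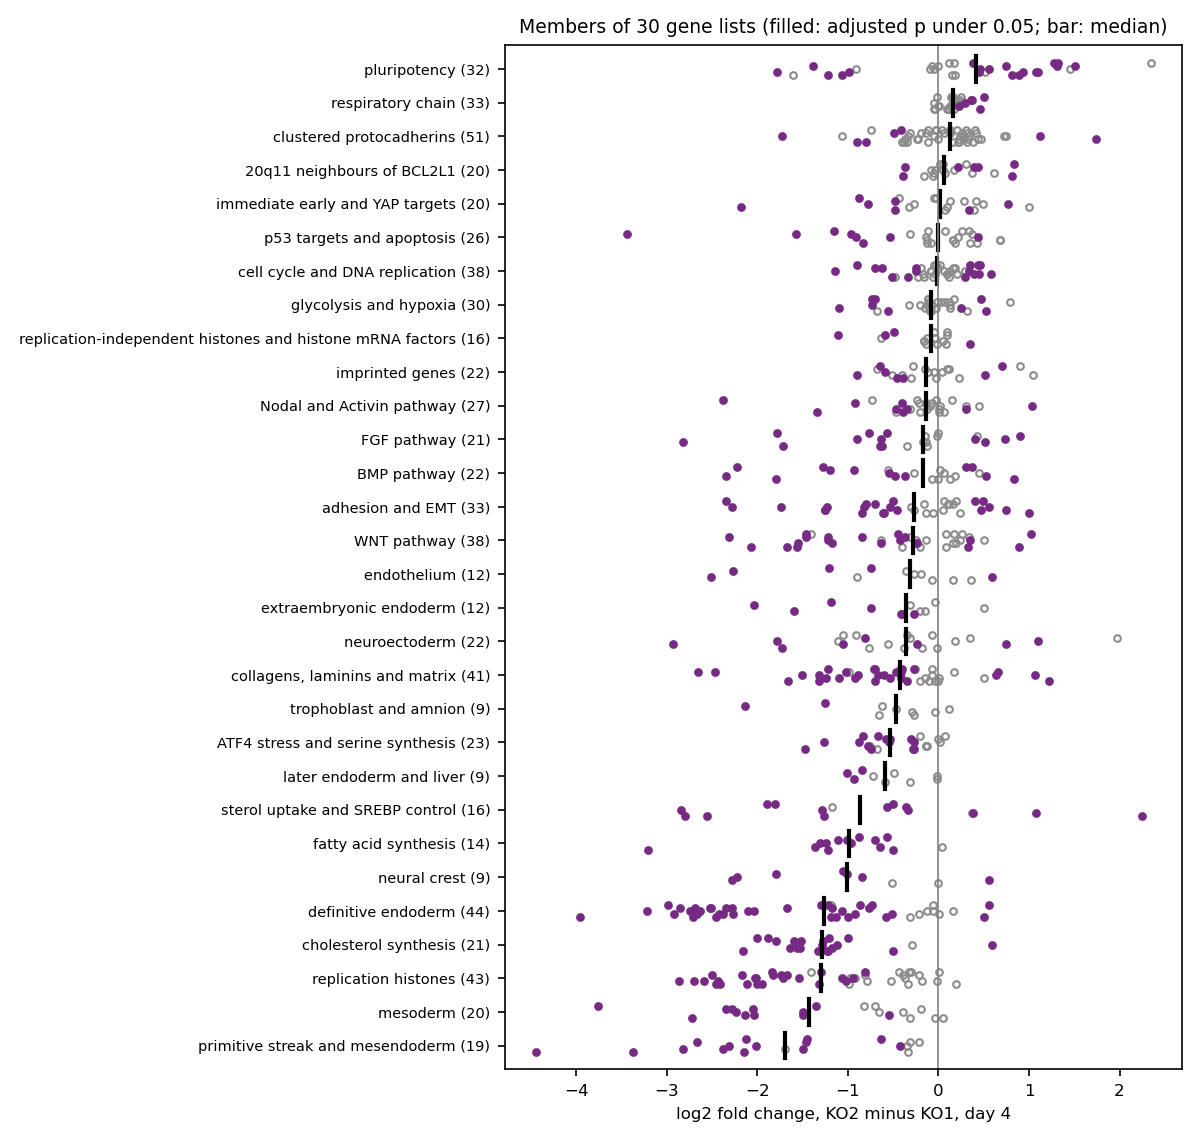
Each point is a measured member of 1 of 30 gene lists, placed by its log2 fold change KO2 minus KO1 at day 4, filled where its adjusted p was under 0.05, with a black bar at the median of the list and the number of members in brackets. The lists are ordered by median, from 0.42 in pluripotency genes to −1.70 in primitive streak genes, and the cholesterol and fatty acid lists are almost wholly filled on the left of 0.

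Mesoderm and matrix genes were lower in KO2. Of 20 mesoderm genes 12 were lower and 0 higher, with a median of −1.43, and WT was nearer to KO2 in 11. PDGFRA, a receptor of mesoderm and primitive endoderm, had 32.3 and 35.5 CPM in KO1, 8.83 and 7.76 CPM in KO2, with 15.1 and 13.2 CPM in WT (log2 −2.04). TBX3, TWIST1 and SNAI2, transcription factors of mesoderm and of epithelial-mesenchymal transition, were lower by log2 −2.73, −2.35 and −2.29, at under 10 CPM in both clones. TBX20 had 29 counts in KO1 and 2 in KO2, a ratio of 15.2 with an exact 95% counting interval of 3.85 to 132.

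COL3A1, the chain of type III collagen, had 28.1 and 18.1 CPM in KO1, 4.33 and 3.01 CPM in KO2, with 5.87 and 5.03 CPM in WT. Its log2 difference was −2.65 (SE 0.26, adjusted p = 3.23e-06, edgeR), with the KO1 libraries above all others. COL5A1, a type V collagen chain, had 246 and 210 CPM in KO1, 44.5 and 38.4 CPM in KO2, with 138 and 127 CPM in WT (log2 −2.46). Of 41 genes of collagens, laminins and matrix 24 were lower and 4 higher, against 14.3% and 10.8% over all tested features. Their median was −0.43, and WT was nearer to KO1 in 27. The proteoglycan gene VCAN was the largest of the 4 higher genes, with 492 and 542 CPM in KO1 and 1183 and 1229 CPM in KO2 (log2 1.22). Without KO1 day 4 replicate 2 only 1 of the higher calls was left.

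Adhesion genes were called in both directions, against 14.3% lower and 10.8% higher over all tested features. Of 33 measured 15 were lower and 6 higher in KO2, with 9 lower without KO1 day 4 replicate 1 and without KO2 day 4 replicate 2. The lower ones included the fibronectin receptor chain ITGA5 (log2 −1.74), N-cadherin (CDH2, log2 −0.70), vimentin (VIM, log2 −0.84), ZEB1 and ZEB2. The higher ones were E-cadherin (CDH1, log2 0.48), the claudins CLDN7 and CLDN10, EPCAM, GRHL2 and ESRP2. The epithelial keratin genes KRT8 and KRT19 were also called (adjusted p = 2.2e-06 and 1.74e-06, edgeR), and neither was among the higher ones. CLDN7 and ZEB2 lost their calls when KO1 day 4 replicate 1 or KO2 day 4 replicate 2 was left out, and ZEB1 under DESeq2 and without any 1 of the 4 day 4 libraries. CDH1 had 351 and 370 CPM in KO1, 495 and 508 CPM in KO2, with 325 and 344 CPM in WT, and CDH2 had 659 and 633 CPM, 408 and 388 CPM and 842 and 773 CPM in the same order.

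Markers of other cell types were mostly lower in KO2 where they were called, but most neuroectoderm and trophoblast genes did not pass. Over all tested features, 14.3% were lower and 10.8% higher. Of 22 neuroectoderm genes 6 were lower and 2, SOX1 and SOX2, higher (median −0.36), with 3 lower without KO1 day 4 replicate 2 and without KO2 day 4 replicate 2. Their summed level was 1974 CPM in both KO1 libraries and 1829 and 1857 CPM in KO2. PAX6 had 6 counts in each clone. Of 9 neural crest genes 6 were lower and 1 higher (median −1.01), with 209 and 199 summed CPM in KO1 and 187 and 188 CPM in KO2, and the higher one, FOXD3, lost its call without KO1 day 4 replicate 1 and without KO2 day 4 replicate 2. Of 9 trophoblast and amnion genes 2 were lower, HAND1 and IGFBP3, and 0 higher, with 52.5 and 43.1 summed CPM in KO1 and 35.3 and 36.2 CPM in KO2. HAND1 lost its call under DESeq2, and the count was 1 when either KO1 day 4 library or KO2 day 4 replicate 2 was left out. Of 12 endothelial genes 4 were lower and 1, FLT1, higher, with 2 lower without KO2 day 4 replicate 2, and EMCN had 0 counts and PECAM1 0 and 1 counts in KO1 and KO2. The endothelial sum was 419 and 425 CPM in KO1 and 508 and 481 CPM in KO2. The part of such cells in the other results was not tested.

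Of 27 genes of the Nodal and Activin pathway measured, 7 were lower, 2 were higher and 18 did not pass, with a median of −0.14. Over all tested features, 14.3% were lower and 10.8% higher. Among the ligands, NODAL had 468 and 455 CPM in KO1 and 382 and 416 CPM in KO2 (log2 −0.21, adjusted p = 0.161, edgeR), and it was called lower in the same 4 alternatives as T (lowest adjusted p = 0.00213, edgeR). TGFB1, another ligand gene of the family, had 84.1 and 84.8 CPM in KO1 and 48.4 and 40.6 CPM in KO2 (log2 −0.93), and DACT2, whose protein binds pathway receptors, had 4.23 and 4.13 CPM in KO1 and 1.53 and 1.74 CPM in KO2 (log2 −1.34). Both were called in all 15 alternatives. Among the receptors, TGFBR1 and TGFBR2 were lower by log2 −0.39 and −0.47, and ACVR1B and ACVR2B did not pass at log2 0.06 and 0.02. SMAD2 was lower by log2 −0.40, SMAD3 and SMAD4 did not pass at log2 −0.03 and 0.00, and the partner factor FOXH1 was lower by log2 −0.34. Without KO1 day 4 replicate 1 the lower count was 3, with TGFBR1, TGFBR2, SMAD2 and FOXH1 not called. TGFBR1 and TGFBR2 were not called without KO2 day 4 replicate 2 either, nor FOXH1 without KO2 day 4 replicate 1. Without either KO1 day 0 library 11 members were lower.

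Inhibitors of the pathway went apart. CER1, a secreted antagonist of Nodal, had 4536 and 4445 CPM in KO1, 967 and 765 CPM in KO2, with 4188 and 3875 CPM in WT (log2 −2.38, SE 0.17, adjusted p = 1.2e-07, edgeR). FST, the Activin-binding follistatin, had 44.4 and 48.6 CPM in KO1, 86.6 and 103 CPM in KO2, with 45.5 and 46.3 CPM in WT (log2 1.03). LEFTY1 and LEFTY2, close paralogs that share reads, did not pass, at log2 −0.12 and 0.45 (adjusted p = 0.688 and 0.0897, edgeR). LEFTY2 was called higher under 6 of the 15 alternatives: with the replicate block (adjusted p = 0.0377, edgeR), with no filter on low counts, with only the libraries compared, with the 6 day 4 libraries and without either KO1 day 0 library. WT held 301 to 416 CPM of either, above every library of the clones at 73.5 to 160 CPM. SMAD7, the other higher member, lost its call under DESeq2 and without any 1 of 6 libraries, the 4 at day 4 and both of KO2 at day 0. The higher count was 1 without any of those 6 and 4 without either KO1 day 0 library.

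Other signalling lists held calls in both directions, as did all tested features, with 14.3% lower and 10.8% higher. Of 38 WNT genes 16 were lower and 4 higher (median −0.28), with 10 lower without KO2 day 4 replicate 1. The higher count was 2 without either KO1 day 4 library and 7 without either KO1 day 0 library. DKK4, a secreted WNT inhibitor, had 118 and 142 CPM in KO1 and 36.9 and 25.4 CPM in KO2 (log2 −2.07), DKK1 was lower by log2 −1.46, and SFRP2, an inhibitor that stem cells express, had 171 and 191 CPM in KO1 and 346 and 325 CPM in KO2 (log2 0.89). Of 21 FGF genes 9 were lower and 4 higher (median −0.17): the feedback gene DUSP4 had 74.0 and 68.9 CPM in KO1 and 22.1 and 21.4 CPM in KO2 (log2 −1.72), while FGFR1 was higher by log2 0.51. Of 22 BMP genes 9 were lower and 4 higher (median −0.17), with BMP2 lower by log2 −2.35 and the BMP target ID1 higher by log2 0.83. The lower count was 5 without KO2 day 4 replicate 2, and the higher count was 1 without KO1 day 4 replicate 1 or KO2 day 4 replicate 2 and 2 without KO1 day 4 replicate 2.

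The stress lists differed unequally. Of 23 genes of the ATF4 stress response and serine synthesis 14 were lower and 0 higher (median −0.53), and WT was nearer to KO2 in 20. The pseudokinase gene TRIB3 had 120 and 93.3 CPM in KO1, 34.3 and 42.2 CPM in KO2, with 50.8 and 40.3 CPM in WT (log2 −1.48). The lower count was 8 without KO1 day 4 replicate 1 and 9 without KO2 day 4 replicate 1. Of 26 p53 targets 7 were lower and 18 did not pass (median −0.0062), against 14.3% lower and 10.8% higher over all tested features. The lower ones included CDKN1A, the gene of p21, at log2 −1.16. The cytokine gene GDF15 was lower by log2 −3.44, from 2.67 and 2.27 CPM in KO1 to 0.160 and 0.268 CPM in KO2. In those KO2 libraries 3 counts equal 0.241 and 0.201 CPM, so the size of this difference rests on few counts. The 1 higher member, FDXR, lost its call under DESeq2, without either KO2 day 0 library, without either KO1 day 4 library and without KO2 day 4 replicate 2, and without either KO1 day 0 library 7 members were higher.

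Of 30 genes of glycolysis and hypoxia 5 were lower and 3 higher (median −0.09), near the shares over all tested features, 14.3% lower and 10.8% higher. The glucose transporter gene SLC2A3 had 1782 and 1532 CPM in KO1 and 985 and 1003 CPM in KO2 (log2 −0.74). Without either KO1 day 0 library 8 were lower and 5 higher, and 1 was higher without KO1 day 4 replicate 1 or without KO2 day 4 replicate 2. Of 33 respiratory chain genes 6 were higher and 0 lower (median 0.16), SDHA at log2 0.46 among them (adjusted p = 0.0695 without KO1 day 4 replicate 1, edgeR). That count was 0 without KO1 day 4 replicate 1, 3 without KO1 day 4 replicate 2 or without KO2 day 4 replicate 2, and 12 without either KO1 day 0 library.

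Among genes outside the lists with at least 5 CPM in the higher clone, CD48 differed most. CD48, a surface protein of leukocytes, had 49.0 and 53.9 CPM in KO1, 2.73 and 2.27 CPM in KO2, with 16.9 and 22.4 CPM in WT (log2 −4.37). ASB5 had 12.4 and 12.9 CPM in KO1 and 1.12 and 0.535 CPM in KO2 (log2 −3.96). MYCT1 was lower by log2 −3.49, the GTPase regulator ARHGAP40 by log2 −3.13, the sphingomyelinase gene SMPD3 by log2 −3.05 and the cytidine deaminase gene APOBEC3G by log2 −2.98. RFPL2 and CLVS2 were lower by log2 −3.33 and −3.08. PRSS1, the trypsinogen gene, had 29.3 and 25.5 CPM in KO1 and 3.93 and 2.07 CPM in KO2 (log2 −3.21), and close trypsinogen copies may share its reads.

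The largest differences in the other direction were at low levels. CSH2, a placental lactogen gene whose near copies share reads, had 0.777 and 1.03 CPM in KO1 and 4.49 and 5.96 CPM in KO2 (log2 2.51, SE 0.35, adjusted p = 0.000109, edgeR). EBF2, a transcription factor, had 2.33 and 3.03 CPM in KO1 and 12.4 and 13.4 CPM in KO2, with 3.74 and 3.48 CPM in WT (log2 2.25). KCNN2, a potassium channel gene, had 3.62 and 4.13 CPM in KO1, 17.6 and 17.1 CPM in KO2, with 5.04 and 6.32 CPM in WT (log2 2.15), below its day 0 level of 19.8 to 25.3 CPM in the clones. The metallothionein gene MT1G, the interferon-induced BST2 and SERPINF1 were higher by log2 2.20, 1.78 and 1.71.

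PCDHGA10 was the 1 gene called at both days in the same direction. It is a clustered protocadherin, an adhesion gene of a cluster whose members share their last exons. It had 3.37 and 2.48 CPM in KO1 and 8.67 and 10.6 CPM in KO2 at day 4 (log2 1.74, SE 0.22, adjusted p = 2.99e-05, edgeR). At day 0 it had 3.62 and 2.58 CPM in KO1 and 8.80 and 7.93 CPM in KO2 (log2 1.44, adjusted p = 0.0421, edgeR), and the test of the change between days did not pass (log2 0.30, adjusted p = 0.615, edgeR). The count of 2 at day 0 was 0 when either KO2 day 0 library, KO1 day 0 replicate 2 or either KO1 day 4 library was left out, and 1 without either KO2 day 4 library. The neighbouring variant PCDHGA11 went the other way at day 4, from 12.7 and 10.2 CPM in KO1 to 3.05 and 3.75 CPM in KO2 (log2 −1.73), and at day 0 it did not pass (log2 −0.56, adjusted p = 0.938, edgeR). Of 51 protocadherin genes 5 were lower and 2 higher at day 4 (median 0.12), smaller shares than the 14.3% and 10.8% over all tested features, and 3 were lower without any 1 of the 4 day 4 libraries. LRRC61, the other gene called at day 0, had 0.220 and 0.222 CPM in KO1 and 2.06 and 3.13 CPM in KO2 there, against 13.0 and 9.47 CPM in WT, and at day 4 had 3 and 9 counts in the clones and 200 in WT.

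WT was then used to place the differences, as a description with no test. From day 0 to day 4, 1314 of the tested features (7.83%) were higher in WT by at least 1 in mean log2 CPM and 1809 (10.8%) were lower. Of the 886 features lower in KO2 by at least 1, 468 (52.8%) were among those higher in WT at day 4 and 66 (7.45%) among those lower. Of the 238 features higher in KO2, 128 (53.8%) were among those lower in WT and 11 (4.62%) among those higher. WT at day 4 was nearer to KO1 in 61.7% of the 886 and in 60.1% of the 238, against 55.5% of all tested features. WT was nearer to KO1 for 40 of 44 endoderm genes and nearer to KO2 for 20 of 21 cholesterol genes and 31 of 43 replication histones.

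**Figure D5:**
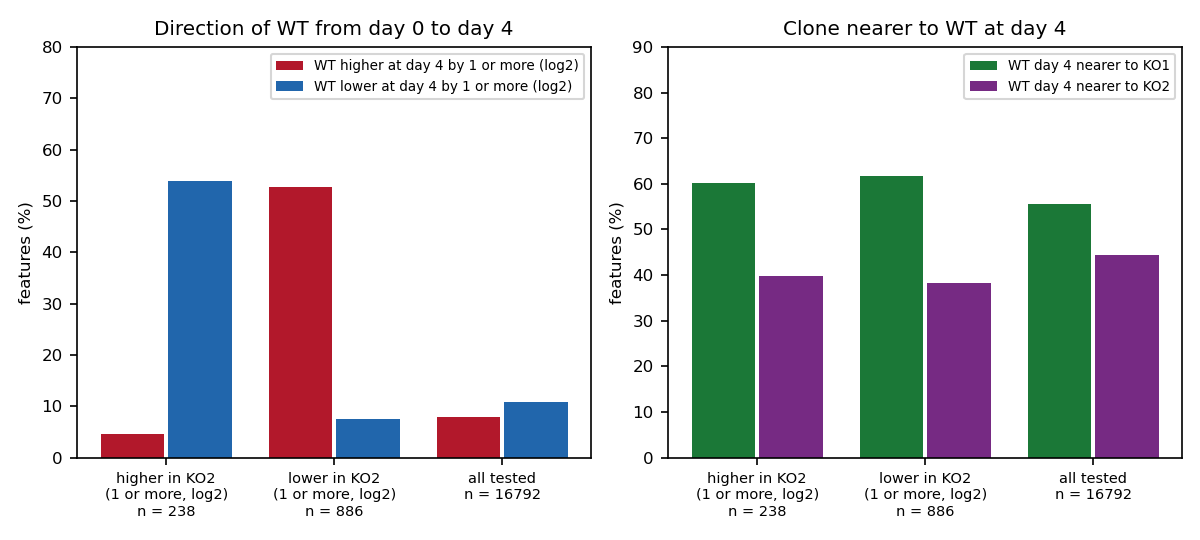
Left, share of features (%) whose mean level in WT was higher or lower at day 4 than at day 0 by at least 1 (log2), for features higher in KO2 (n = 238), lower in KO2 (n = 886) and all tested (n = 16792). Right, share of the same features (%) for which WT at day 4 was nearer to KO1 or to KO2 in mean log2 CPM: 61.7% of the lower and 60.1% of the higher features were nearer to KO1, against 55.5% of all.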

How the data were processed

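The authors deposited read counts for each feature. HTSeq 0.6.1, Bowtie2 2.1.0 and hg19 are named in the submitters' processing notes. Libraries were made with a stranded poly(A) kit, per the labels' protocols. No source used here gives the annotation or the strand setting of the counting, so overlapping genes and close paralogs are uncertain. Closing rows that name no feature were dropped (29.2% to 30.5% of reads outside features, 19.3% to 22.2% of low quality, 1.17% to 1.41% ambiguous, 0.115% to 0.171% not aligned). The files list 54435 features, 28251 had counts and 16792 passed edgeR's filterByExpr.

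One edgeR quasi-likelihood model (edgeR 4.0.16, R 4.3.3) was fitted to all 12 libraries in 6 groups, with TMM scaling and 6 residual degrees of freedom. The contrasts were KO2 minus KO1 at day 4, at day 0, and the difference between these. Adjusted p is Benjamini-Hochberg over all 16792 features, with a threshold of 0.05. SE is the size of the log2 difference divided by the square root of F. Fitted values use edgeR's default prior count, and mean log2 CPM uses a prior count of 2. Intervals on low counts are exact (Clopper-Pearson) and cover counting error only. The fit was also run on simulated counts with the same dispersion in every library. Those counts hold no pair that disagrees as the KO1 day 0 libraries do, so they do not cover that case. Alternatives were RLE and upper-quartile scaling, no filter, DESeq2 1.42.0, fewer libraries in the fit, a replicate block and leaving out each library.

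The clones compared, the 30 gene lists and the rule for named genes were chosen with earlier results of these data known. The rule takes the 15 largest changes each way with at least 5 CPM in the higher clone and no overlap, 4 markers and 16 lineage genes, the 3 largest called members of each list each way, genes called at both days, and the 6 largest each way by the difference between days. FASN, DKK1, HIST1H2BD, CDH1, CDH2, VIM, MKI67, LRRC61 and other list members outside the rule were named after their values were seen. Lists share genes and are described by counts and medians with no test. Promoters are from a RefSeq table matched by symbol. Figures were drawn with matplotlib 3.10.9. Some list members are not reported here, and the ChIP-seq samples are not analysed here.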

Additional observations from a re-analysis of the deposited data

Results flagged for a closer look

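Genes whose difference between the clones was itself different at day 4 and at day 0 are given here, all by edgeR's test of that difference at an adjusted p under 0.05. It was more positive at day 4 in 659 features and more negative in 1095. Values below are KO2 minus KO1 at day 4 less the same at day 0, on the log2 scale. They rest in part on the KO1 day 0 libraries, which disagreed with each other: without KO1 day 0 replicate 1 the counts were 1703 and 2034, and without replicate 2 they were 1467 and 1794.

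Among the markers given for this comparison, the value was −2.90 for HIST1H1C, −1.69 for HMGCS1, −2.16 for COL3A1 and 1.40 for SOX2. Pluripotency factors were more positive at day 4, POU5F1 by 0.526 and NANOG by 0.585. Some endoderm and streak genes were more negative: EOMES by −2.46, SOX17 by −2.31, FOXA2 by −2.50, GATA6 by −3.33, CXCR4 by −3.52 and CER1 by −3.71. These 6 genes were at 5.43 CPM or less in the clones at day 0. MIXL1, GSC, T, GATA4 and HHEX did not pass this test (adjusted p = 0.509, 0.188, 0.47, 0.0835 and 0.455, edgeR). It was passed by 7 of 19 measured streak genes and 24 of 44 endoderm genes. LEFTY2 was more positive by 1.63, with adjusted p = 0.938 at day 0 and 0.0897 at day 4, where it was called under 6 of 15 alternatives.

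The 6 most positive were CSH2 (6.85), TTYH1 (2.72), MT1G (2.57), GPR160 (2.57), CR2 (2.48) and CPNE7 (2.11). TTYH1 had 20.5 to 28.2 CPM in the clones at day 0, and at day 4 it had 0.518 and 0.894 CPM in KO1 and 4.25 and 4.08 CPM in KO2. CSH2 had 7 counts in KO1 and 0 in KO2 at day 0, too few for a fold, and its value depends on the prior count. GPR160 had 14.1 CPM in KO1 day 0 replicate 1 and 38.6 CPM in replicate 2. Its day 4 call was lost without KO1 day 4 replicate 1 (adjusted p = 0.102, edgeR) and without KO2 day 4 replicate 1 (0.0504).

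The 6 most negative were CD48 (−7.92), SPATA16 (−6.07), LINC00261 (−5.56), APLNR (−5.40), CD177 (−4.07) and LHX5 (−4.04). CD48 had 0 counts in KO1 and 2 in KO2 at day 0, and LINC00261 had 1 and 4, so these values depend on the prior count too. The day 0 counts of GATA6 were 6 and 5. SPATA16, a testis gene, had 62 counts in KO1 and 2 in KO2 at day 4, a ratio of 32.5 with an exact 95% counting interval of 8.63 to 274, and at day 0 KO2 held 7.40 and 5.68 CPM against 3.35 and 2.40 CPM in KO1, the opposite order. CD177 was at 4.00 to 4.96 CPM in both clones at day 0, higher than in KO2 at day 4 and lower than in KO1.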

How the results depend on the processing

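At day 4, 3244 features were higher in KO2 in a fit of only the 4 libraries compared and 2939 in a fit of the 6 day 4 libraries, against 1810. Leaving out a library gave 717 to 2921 higher and 1451 to 3194 lower features, and 158 to 261 higher and 694 to 943 lower by at least 1 (log2). The day 0 counts were 14 higher and 57 lower with no filter on low counts, 0 and 0 with only the libraries compared, and 0 to 1437 higher and 0 to 1340 lower when a library was left out. For the difference between days, leaving out a library gave 267 to 1703 more positive and 630 to 2034 more negative features. With the replicate block, where the replicate number is a term, the counts were 2064 higher and 2538 lower at day 4, 2 and 0 at day 0, and 783 and 1203 for the difference between days; none of these counts moved by over 1.5 times. The libraries share only a number: same-numbered deviations of KO1 and KO2 correlated at 0.0798 at day 4 and 0.209 at day 0. RLE and upper-quartile scaling and DESeq2 kept each of these counts within 1.5 times its value, and the share of day 4 calls that were higher was 43.0% in the fit reported, 43.7% with RLE and 47.1% with upper-quartile scaling.

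Of 162 named genes called at day 4, 123 were called under all 15 alternatives and 39 lost the call under at least 1. Of the 4 named genes not called, T, NODAL and LEFTY2 were called under 4, 4 and 6 alternatives, LEFTY2 with the replicate block among them. LEFTY1 ranged from log2 −0.291 without KO1 day 4 replicate 1 to 0.0691 without KO1 day 4 replicate 2 (adjusted p = 0.889, edgeR). Over the alternatives, cholesterol synthesis had 19 to 20 lower genes, fatty acid synthesis 13, definitive endoderm 30 to 36, primitive streak 12 to 18 and replication histones 19 to 27. At day 4, 3 counts in a library of the clones equal 0.201 to 0.259 CPM, and differences near that level were not detectable at this depth.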

Other observations

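Neighbouring genes were also grouped. Names matched 15413 features to an ordered gene table. The median log2 difference was taken in 2239 overlapping windows of 30 neighbouring genes with at least 5 CPM in the higher clone at day 0. Genes below that level at day 0 were left out of the windows at both days. The window medians ran from −0.25 to 0.27 at day 4 and from −0.15 to 0.099 at day 0. Copy number was not tested. Medians of whole chromosomes ran from −0.048 to 0.043 at day 4 and from −0.034 to 0.029 at day 0. Of 20 genes near BCL2L1 in 20q11 5 were higher and 2 lower in KO2 at day 4 (median 0.06), against 10.8% higher and 14.3% lower over all tested features. BCL2L1 had 141 and 128 CPM in KO1 and 141 and 140 CPM in KO2 (adjusted p = 0.603, edgeR), and DNMT3B and ID1, which lie in that segment, were the largest of the higher genes at log2 0.81 and 0.83. The higher count was 2 without KO1 day 4 replicate 2 and 3 without any 1 of the other day 4 libraries of the clones, and without these 4 in turn the lower count was 0 or 1.

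Of 22 imprinted genes 5 were lower and 2 higher at day 4 (median −0.13), against 14.3% lower and 10.8% higher over all tested features. CDKN1C at log2 −0.90 and GRB10 at log2 −0.65 were among the lower, and CDKN1C lost its call without KO2 day 4 replicate 1. The lower count was 3 without KO1 day 4 replicate 1 or either KO2 day 4 library and 8 without either KO1 day 0 library, and the higher count was 0 without either KO2 day 4 library and 1 without any 1 of the KO2 day 0 or KO1 day 4 libraries. Of 20 immediate early and YAP target genes 5 were lower and 2 higher (median 0.02), against the same 14.3% and 10.8% over all tested features. ANKRD1, a YAP target, had 12.3 and 11.6 CPM in the KO1 libraries, 2.49 and 2.74 CPM in those of KO2 and 33.9 and 20.2 CPM in WT (log2 −2.19). The lower count was 3 and the higher count 0 without KO1 day 4 replicate 1, and the higher count was 1 without KO2 day 4 replicate 1, 0 without KO2 day 4 replicate 2 and 6 without either KO1 day 0 library.

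Of 763 tested features whose names begin with SCRIPTURE 25 were higher and 61 lower in KO2 at day 4 (11.3% called). Of 225 whose names begin with 48HRS 5 were higher and 32 lower (16.4% called). Both shares lie below the 25.1% called over all tested features. The corresponding counts for 15429 features named by a gene symbol were 1760 and 2285 (26.2% called), and these shares were not tested against each other.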
